A study of Homo sapiens and Mus musculus with 8 samples.

Results

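The comparison set LS174T cells grown as xenograft tumors against the same cells grown in culture. LS174T is a human colorectal cancer cell line known for secreting mucin. It was taken as 4 of the 8 RNA-seq libraries of a study of mutant GNAS, chosen by line from the sample labels: 2 cell line-derived xenografts (CDX) and 2 cultures, each in a Dox (-) and a Dox (+) state. The groups were the LS174T GNAS R201H CDX tumor Dox (-), the CDX tumor Dox (+), the culture Dox (-) and the culture Dox (+), with 1 library each, so every library of the comparison carries the GNAS R201H label. GNAS encodes the stimulatory G protein alpha subunit that switches on adenylyl cyclase, and R201H is an activating change.

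What Dox induces is not given in the labels, and the drug itself cannot be told apart from what it induces. The labels give neither the host strain, the site or age of the tumors, nor whether the libraries came from separate cultures or animals. The p-values below measure only the spread between these libraries, which may be technical or include effects of Dox. Tumors were compared with cultures within each Dox state, so the 2 Dox pairs stand in for replicates of the step from culture to animal. In the LS174T fit the spread is thus the disagreement between the 2 pairs. A Dox effect that differs between tumor and culture counts as part of it. The other 4 libraries, xenografts and cultures of KM12 parental (labelled GNAS R201H) and KM12 GNAS KO (knockout) cells, are used at the end to ask whether LS174T moved differently from another line.

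As background, a tumor grown in an animal can outgrow its blood supply, while cultured cells sit in oxygenated medium. In cells short of oxygen the HIF factors are stabilised and raise genes for glucose uptake, glycolysis, acid handling and vessel growth. The aryl hydrocarbon receptor (AHR) is a ligand-activated factor that raises CYP1 enzymes, and NRF2 raises detoxifying enzymes under oxidative or electrophilic stress. LS174T also keeps parts of the intestinal programme, including mucins of goblet cells and crypt genes that depend on Wnt signalling.

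Values are CPM, a gene's reads relative to the library's total corrected by TMM factors, given for Dox (-) and then Dox (+) in each environment. CPM are not divided by transcript length, so they compare libraries for a gene, not genes with each other. Log2 values are xenograft over culture. The value after ± is an approximate SE, namely the size of the log2 value divided by the square root of the test's F. It is unsteady where the change is near 0 or the reads are few. Of 14677 genes tested with edgeR's quasi-likelihood test, 8402 (57.2%) passed a Benjamini-Hochberg adjusted p below 0.05, with 4327 higher in xenografts (29.5%) and 4075 lower (27.8%). Only genes past this test are said to have risen or fallen. Upper-quartile scaling, which moves the median of all genes by 0.167 log2, gave 5327 higher and 3232 lower, or 62.2% of calls higher against 51.5% with TMM. A change of 8-fold or more was seen for 528 genes that rose and 219 that fell. The sign was the same in both Dox pairs for 12510 of all genes tested (85.2%) and for all 8402 called. Xenografts and cultures did not overlap for 11589 of all genes tested (79.0%), so a lack of overlap in single genes is common here. The calls numbered 2340 higher and 2098 lower without the Dox (-) culture, and 2304 and 2149 without the Dox (+) culture.

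**Figure D1:**
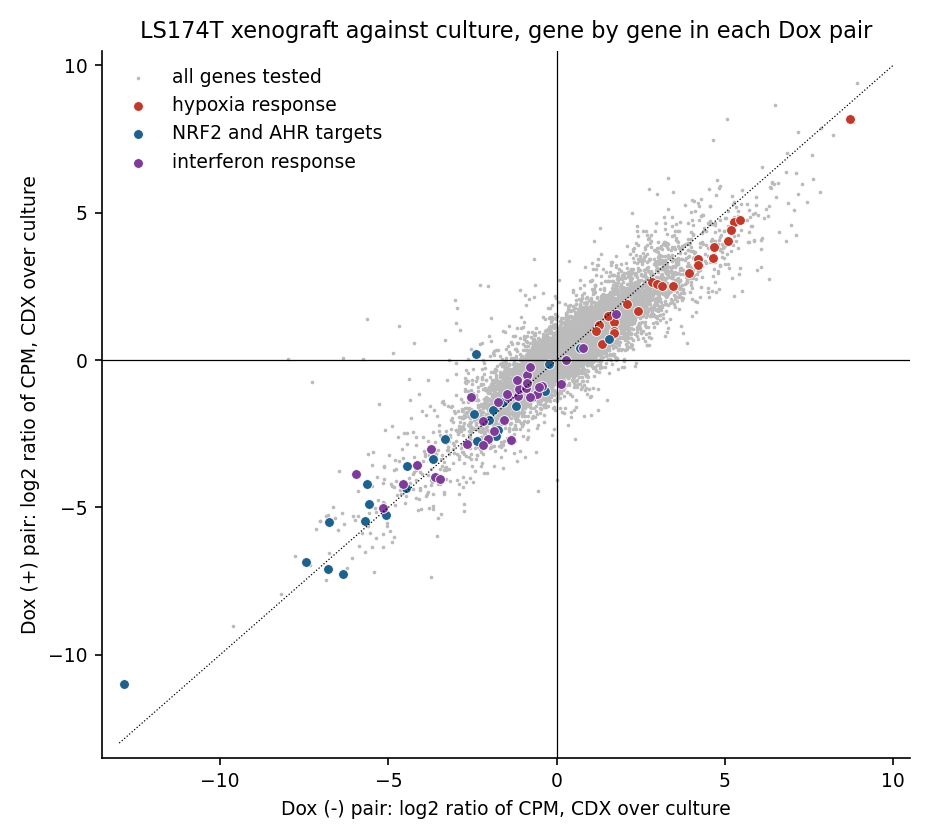
Each point is a gene. The x axis gives the log2 ratio of CPM, xenograft over culture, in the Dox (-) pair and the y axis the same in the Dox (+) pair, both with a prior count of 2. Grey points are all 14677 genes tested, and coloured points are the tested members of 3 gene lists. Hypoxia response genes lie in the upper right in both pairs, while most NRF2 and AHR targets and most interferon response genes lie in the lower left.

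GNAS itself was counted at 590.4 and 696 CPM in xenografts and at 685 and 1728 CPM in culture. The Dox (-) culture lay between the 2 xenografts, so the ranges overlapped, and the Dox (+) culture stood far above the other 3 libraries. Its log2 change was -0.76 ± 0.25 (edgeR adjusted p = 0.0206), and without the Dox (+) culture it was -0.10 (edgeR adjusted p = 0.829). The call was also lost without either xenograft, without the Dox block and in the fit over all 8 libraries.

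Total counts were 23124811 and 18700935 in the xenografts and 36104180 and 32401946 in the cultures. Intestinal epithelial markers were present in all 4 libraries. EPCAM, an epithelial adhesion molecule, had 769 and 749.96 CPM in xenografts, against 696 and 699 CPM in culture, and VIL1, a brush border protein, had 394 and 344 CPM in xenografts, against 377 and 321 CPM in culture, and neither passed the test. Of 14 colorectal markers 3 rose and 6 fell, and without the Dox (+) xenograft 5 rose. The labels give the mouse as organism of the tumors, yet the table holds 0 mouse gene identifiers, and how mouse reads were treated is not given in the sources used here. Markers of host cell types, read as human genes, were scarce. Fibroblast markers (5 of 14 tested) summed to 9.43 and 12.01 CPM in xenografts and 12.5 and 11.2 CPM in culture. Endothelial markers (2 of 12 tested) summed to 7.38 and 7.32 CPM in xenografts and 6.60 and 6.53 CPM in culture. Leukocyte markers (2 of 15 tested) summed to 9.72 and 8.44 CPM in xenografts and 49.9 and 38.8 CPM in culture, where LYZ, a lysozyme that Paneth cells also make, was most of the culture sum. LYZ had 0.451 and 2.59 CPM in xenografts, against 46.3 and 36.0 CPM in culture, and was not called (log2 -4.91 ± 1.17). It was called with DESeq2 (adjusted p = 6.31e-05), limma-voom, no filter, no Dox block and all 8 libraries. The other tested leukocyte marker, CD14, a monocyte receptor subunit, rose, with 7.42 and 4.49 CPM in xenografts, against 1.67 and 1.44 CPM in culture (log2 1.90 ± 0.37, edgeR adjusted p = 0.000123). POSTN of fibroblasts, KDR of endothelium, TYROBP and C1QA of myeloid cells, CD3E of T cells and HBA1 of red cells were at 0 in all 4. Lymphocyte markers (2 of 10 tested) summed to 6.399 and 3.81 CPM in xenografts and 0.669 and 0.919 CPM in culture. Red cell and muscle markers (1 of 13 tested, MB) summed to 8.57 and 8.79 CPM in xenografts and 2.86 and 2.59 CPM in culture. Adipocyte and mesothelial markers (4 of 9 tested) summed to 72.0 and 89.5 CPM in xenografts and 111 and 94.3 CPM in culture, with 1 that rose (WT1) and 3 that fell, or 1 that fell without the Dox (-) culture. The part of other cells in the results was not tested, and in bulk RNA fewer cells of a type and less RNA per cell cannot be told apart.

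Genes of the hypoxia response were higher in both tumors. All 23 tested members of the hypoxia list rose, with a median log2 change of 2.84, against 0.02 over all genes tested. The remaining member, LOX, stayed under the limit for testing. CA9 alone passed the filter on low counts through the xenografts only, and the other 22 reached 1 CPM in both environments. The count was 23 under every alternative tried but 1, the fit without the Dox (-) culture, where 22 rose.

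CA9, the tumor carbonic anhydrase that exports acid, had 236 and 231 CPM in xenografts, against 0.487 and 0.722 CPM in culture, a log2 change of 8.59 ± 0.25 (edgeR adjusted p = 2.68e-18). It was near the edge of detection in both cultures and plainly expressed in both tumors. EGLN3, a prolyl hydroxylase that marks HIF for destruction and is itself a HIF target, had 363 and 223 CPM in xenografts, against 9.37 and 8.66 CPM in culture (log2 4.98 ± 0.20). ADM, the vessel-dilating peptide adrenomedullin, had 376 and 178 CPM in xenografts, against 8.52 and 6.50 CPM in culture (log2 5.13 ± 0.21). ANKRD37, a short ankyrin repeat protein, had 56.8 and 39.4 CPM in xenografts, against 1.49 and 1.77 CPM in culture (log2 4.86 ± 0.24). In these 4 genes even the lower tumor stood far above the higher culture.

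The mitophagy receptors BNIP3 and BNIP3L rose by 2.75 ± 0.17 and 2.79 ± 0.17 log2. BNIP3 had 303 and 254 CPM in xenografts, against 42.3 and 40.4 CPM in culture. VEGFA, the main growth factor of blood vessels, had 2296 and 1056 CPM in xenografts, against 149.5 and 137 CPM in culture (log2 3.45 ± 0.24). DDIT4, an inhibitor of mTORC1 under low oxygen, had 1868 and 860.1 CPM in xenografts, against 55.0 and 52.1 CPM in culture (log2 4.57 ± 0.26), and NDRG1 had 1979 and 1007 CPM in xenografts, against 77.4 and 70.0 CPM in culture (log2 4.26 ± 0.23). In DDIT4, VEGFA and NDRG1 the Dox (-) tumor stood well above the Dox (+) tumor, while the 2 cultures lay close together. Over the list the median log2 ratio was 3.14 in the Dox (-) pair and 2.57 in the Dox (+) pair.

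Some of the largest changes outside that list were in genes known as HIF targets in other cells. NDUFA4L2, a mitochondrial protein related to a complex I and IV subunit, had 245 and 250.3 CPM in xenografts, against 0.426 and 0.295 CPM in culture, a log2 change of 9.40 ± 0.26. PLOD2, a lysyl hydroxylase that prepares collagen for cross-linking, had 276 and 151 CPM in xenografts, against 1.67 and 2.33 CPM in culture (log2 6.68 ± 0.34).

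HIF complexes often bind DNA at the core letters ACGTG, so the 250 bases before the RefSeq gene start (GRCh38.p14, gene strand, 5′ to 3′) are shown for 4 members with the core and for EGLN3 without it. Capitals mark ACGTG or its reverse complement CACGT, which overlap where CACGTG is read.
CA9: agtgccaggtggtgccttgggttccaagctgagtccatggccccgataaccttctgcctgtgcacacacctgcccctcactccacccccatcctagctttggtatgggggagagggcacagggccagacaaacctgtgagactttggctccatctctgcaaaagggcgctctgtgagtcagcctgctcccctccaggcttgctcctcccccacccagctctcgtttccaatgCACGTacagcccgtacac
ANKRD37: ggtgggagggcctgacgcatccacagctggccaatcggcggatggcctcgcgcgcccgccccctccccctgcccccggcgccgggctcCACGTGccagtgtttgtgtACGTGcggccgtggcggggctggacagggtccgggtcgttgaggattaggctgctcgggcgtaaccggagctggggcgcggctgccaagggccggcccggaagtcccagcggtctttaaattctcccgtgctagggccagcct
DDIT4: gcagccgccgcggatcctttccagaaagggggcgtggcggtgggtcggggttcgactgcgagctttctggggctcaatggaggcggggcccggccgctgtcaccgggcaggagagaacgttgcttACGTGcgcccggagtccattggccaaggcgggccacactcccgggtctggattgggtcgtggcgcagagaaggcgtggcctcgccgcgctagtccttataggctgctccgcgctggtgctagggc
BNIP3: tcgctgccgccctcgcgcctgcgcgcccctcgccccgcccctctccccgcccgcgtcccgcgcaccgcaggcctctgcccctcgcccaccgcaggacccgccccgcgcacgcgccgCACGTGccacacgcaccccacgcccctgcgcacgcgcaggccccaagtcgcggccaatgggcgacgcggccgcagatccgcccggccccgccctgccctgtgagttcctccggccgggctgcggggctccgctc
EGLN3: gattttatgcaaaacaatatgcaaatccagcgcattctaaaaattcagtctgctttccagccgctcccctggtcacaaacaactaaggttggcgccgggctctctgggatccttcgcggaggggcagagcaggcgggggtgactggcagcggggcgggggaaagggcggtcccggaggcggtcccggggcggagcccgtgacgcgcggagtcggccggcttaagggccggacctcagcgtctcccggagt
They lie at chr9:35673678-35673927 (plus strand), chr4:185396591-185396840 (plus), chr10:72273674-72273923 (plus), chr10:131981924-131982173 (minus) and chr14:33951075-33951324 (minus). In CA9 the match begins 18 bases before the start, on the other strand, and in ANKRD37 there are 3 overlapping or nearby matches between 162 and 143 bases before it. Of the 23 tested members 20 had a window in RefSeq, and 10 of them held the core on either strand (50%), against 2367 of 10064 windows of tested protein-coding genes (23.5%). Members with the core had a median log2 change of 2.79 and those without it 2.52, with ranges of 0.95 to 8.59 and 1.08 to 5.13. EGLN3, with no ACGTG in its window, had a log2 change of 4.98 ± 0.20, and ANKRD37, with 3, one of 4.86 ± 0.24. A match is a description of letters and not a bound site, and enhancers further away were not searched.

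Glycolytic genes rose in part. Of 17 tested, 9 rose (52.9%) and 1 fell, with a median log2 change of 0.59. ALDOC, an aldolase isoform, had 240.00 and 193 CPM in xenografts, against 24.9 and 21.9 CPM in culture (log2 3.20 ± 0.17). ENO2, an enolase isoform, had 438 and 314 CPM in xenografts, against 61.2 and 65.8 CPM in culture (log2 2.55 ± 0.18), and HK2, the inducible hexokinase, had 611 and 362 CPM in xenografts, against 143 and 155 CPM in culture (log2 1.66 ± 0.20). LDHA, which turns pyruvate to lactate, had 2394 and 1771 CPM in xenografts, against 908 and 960.5 CPM in culture (log2 1.14 ± 0.19). The housekeeping member GAPDH had 5715 and 5528 CPM in xenografts, against 5291 and 5013 CPM in culture and did not pass the test (log2 0.13 ± 0.19). PKM, the last kinase of the pathway, was the member that fell, with 1880.1 and 1619 CPM in xenografts, against 3141 and 2942 CPM in culture (log2 -0.80 ± 0.19). TPI1, GPI and ALDOA, other enzymes of the pathway, did not pass either. Without either culture 5 members rose and 0 fell, and without the Dox (-) xenograft 2 fell. Several of these genes have processed pseudogenes that can share their reads.

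**Figure D2:**
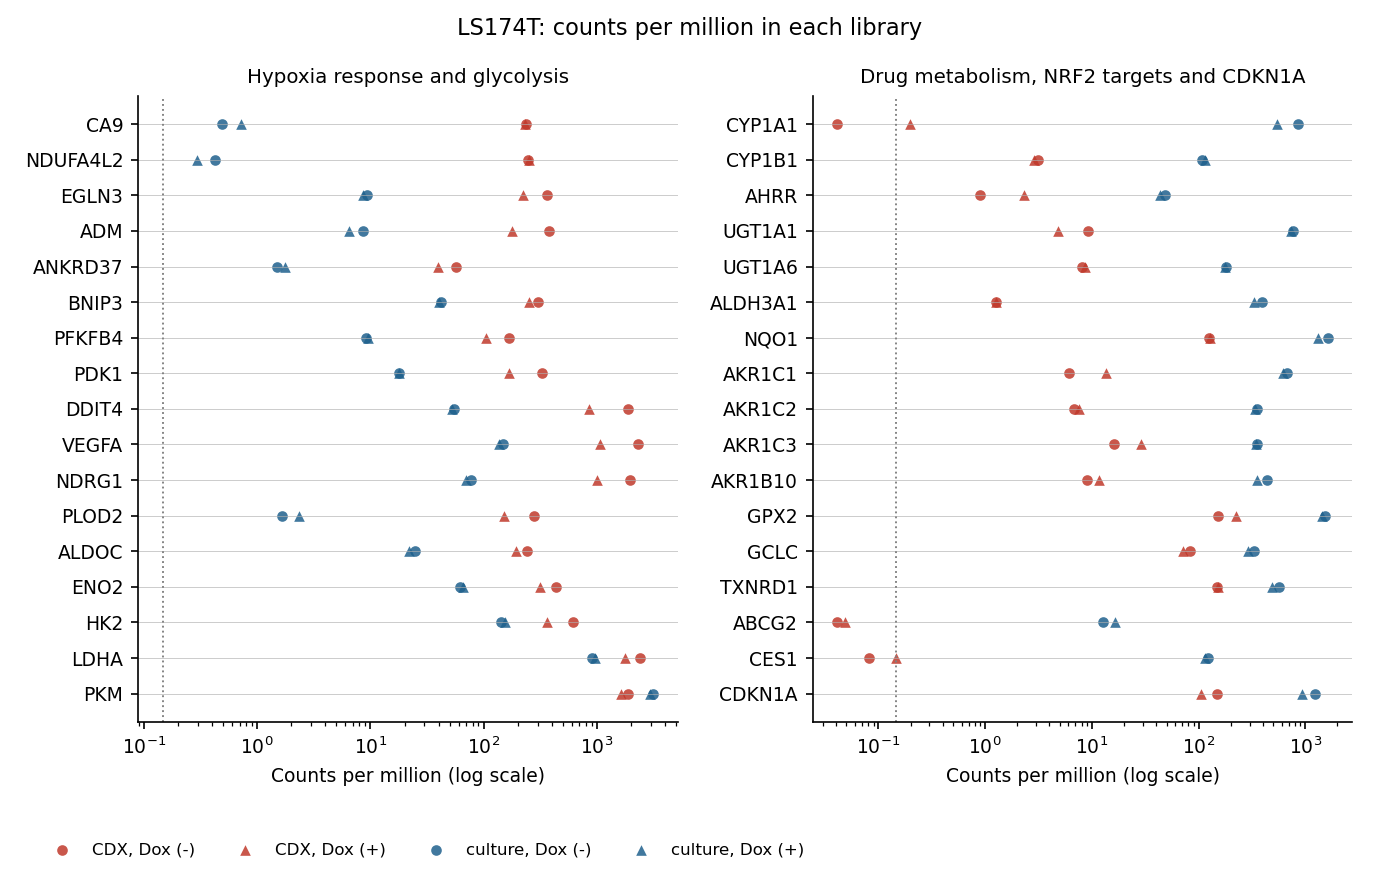
CPM on a log axis for each of the 4 LS174T libraries, with xenografts in red and cultures in blue, circles for Dox (-) and triangles for Dox (+). The dotted line marks the highest floor of 3 counts among the libraries, 0.146 CPM. CA9 and NDUFA4L2 lie above 230 CPM in both xenografts and under 1 CPM in culture, and CYP1A1 lies at or under 0.195 CPM in both xenografts and above 500 CPM in culture.

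Enzymes of drug metabolism and antioxidant defence fell together. Of 27 tested members of the NRF2 and AHR list, 23 fell (85.2%) and 2 rose, with a median log2 change of -2.58. Of the members that fell, 3 reached 1 CPM in culture only and 20 in both environments.

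CYP1A1, the classical AHR target that oxidises polycyclic hydrocarbons, had 0.0410 and 0.195 CPM in xenografts, against 860.5 and 548 CPM in culture, which is 1 and 4 reads in the tumors against 28284 and 16690 reads in culture. Its ratio of xenograft to culture was 4.77e-05 (1.21e-06 to 0.000266) in the Dox (-) pair and 0.000357 (9.71e-05 to 0.000913) in the Dox (+) pair, with 95% intervals that cover counting error only. CYP1A2, its neighbour and close copy, had 0 reads in both xenografts and 12.8 and 8.50 CPM in culture, so it was at least 104-fold and 58.0-fold lower against a floor of 3 counts per library. CYP1B1, another member of the family, had 3.12 and 2.88 CPM in xenografts, against 108 and 114 CPM in culture (log2 -5.20 ± 0.21, edgeR adjusted p = 7.62e-16). AHRR, the repressor that AHR induces, had 0.902 and 2.29 CPM in xenografts, against 48.5 and 43.3 CPM in culture (log2 -4.91 ± 0.34). TIPARP, another AHR target, moved far less, with 86.3 and 45.4 CPM in xenografts, against 109.9 and 93.3 CPM in culture (log2 -0.69 ± 0.18).

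UGT1A1 and UGT1A6 are glucuronidation enzymes that share exons at a common locus, so that reads may be split between them. UGT1A1 had 9.19 and 4.78 CPM in xenografts, against 761 and 738 CPM in culture (log2 -6.79 ± 0.25). UGT1A6 had 8.04 and 8.64 CPM in xenografts, against 182 and 175 CPM in culture (log2 -4.42 ± 0.19). ALDH3A1, an aldehyde dehydrogenase, had 1.27 and 1.27 CPM in xenografts, against 396 and 332 CPM in culture (log2 -8.16 ± 0.23). NQO1, a quinone reductase under both AHR and NRF2, had 126 and 128 CPM in xenografts, against 1626 and 1322 CPM in culture (log2 -3.53 ± 0.20). For NQO1 both tumors were alike and far below either culture.

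Aldo-keto reductases, known NRF2 targets, fell steeply. AKR1C1 had 6.15 and 13.5 CPM in xenografts, against 679.9 and 619 CPM in culture (log2 -6.13 ± 0.36). AKR1C2 had 6.81 and 7.61 CPM in xenografts, against 356 and 337 CPM in culture (log2 -5.59 ± 0.20), and AKR1C3 had 16.1 and 28.6 CPM in xenografts, against 352 and 344 CPM in culture (log2 -4.02 ± 0.21). These 3 are near-identical copies, so their single counts are uncertain while their direction was shared. AKR1B10 had 8.98 and 11.7 CPM in xenografts, against 435 and 351 CPM in culture (log2 -5.25 ± 0.21). Glutathione synthesis fell less: GCLC, the catalytic subunit of the first enzyme, had 82.2 and 70.8 CPM in xenografts, against 329 and 291 CPM in culture (log2 -2.02 ± 0.16), and GCLM, its modifier subunit, had a log2 change of -1.50 ± 0.17. GPX2, the gut glutathione peroxidase, had 153 and 224 CPM in xenografts, against 1517 and 1440.2 CPM in culture (log2 -2.998 ± 0.20). HMOX1, heme oxygenase, did not pass, with 5.99 and 24.1 CPM in xenografts, against 31.8 and 20.9 CPM in culture, and its values overlapped, since the Dox (+) tumor lay between the cultures.

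Drug efflux and hydrolysis genes fell too. ABCG2, an efflux pump, had 0.0410 and 0.0488 CPM in xenografts, against 12.7 and 16.5 CPM in culture, which is 1 read in each tumor, and its ratio was 0.00323 (8.15e-05 to 0.0181) in the Dox (-) pair and 0.00296 (7.49e-05 to 0.0166) in the Dox (+) pair. CES1, a carboxylesterase that activates or clears ester drugs, had 0.0820 and 0.146 CPM in xenografts, against 122 and 114 CPM in culture, with a ratio of 0.00067 (8.11e-05 to 0.00242) in the Dox (-) pair and 0.00129 (0.000265 to 0.00376) in the Dox (+) pair. The exceptions in the list were CYP3A5 with 57.1 and 20.9 CPM in xenografts, against 19.4 and 12.8 CPM in culture (log2 1.15 ± 0.21), and its receptor NR1I2 with 85.5 and 53.3 CPM in xenografts, against 52.9 and 40.2 CPM in culture (log2 0.55 ± 0.17). Without either culture, without the Dox (-) xenograft or without the Dox block, 0 members were called higher.

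The 15 protein-coding genes with the largest rise, among those at a mean of 5 CPM or more, were GABRA2, NDUFA4L2, CA9, PNCK, CD200, BEST2, LGI4, CABP7, GYG2, KLK2, PPFIA4, WFDC2, PLOD2, CCDC80 and C15orf48. Of these, 14 reached 1 CPM in xenografts only and therefore entered the test through the group where they are high. GABRA2, a GABA receptor subunit, had 33.2 and 20.0 CPM in xenografts and 0 reads in culture, at least 364-fold and 203-fold higher against a floor of 3 counts per library. BEST2, a chloride and bicarbonate channel of colonic goblet cells, had 87.9 and 79.0 CPM in xenografts, against 0.304 and 0.262 CPM in culture (log2 8.18 ± 0.27). CD200, a surface protein that restrains myeloid cells, had 30.9 and 54.1 CPM in xenografts, against 0.0304 and 0.197 CPM in culture, with 1 and 6 reads in the cultures. KLK2, a kallikrein protease with close copies, had 29.2 and 61.2 CPM in xenografts, against 0.183 and 0.394 CPM in culture (log2 7.27 ± 0.29), and PPFIA4, a liprin, had 91.3 and 43.9 CPM in xenografts, against 0.578 and 0.459 CPM in culture (log2 6.98 ± 0.26). Several of them are known from neurons or other organs.

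The 15 with the largest fall were CYP1A1, CYP1A2, CES1, ABCG2, ALDH3A1, PANX2, CALB2, UGT1A1, SLC6A20, DIO3, KRT6A, NAV3, CLDN2, FGF19 and CST1, of which 10 reached 1 CPM in culture only. CALB2, the calcium-binding protein calretinin, had 0.369 and 0.439 CPM in xenografts, against 71.2 and 63.0 CPM in culture (log2 -7.37 ± 0.27). SLC6A20, a proline transporter, had 2.87 and 1.66 CPM in xenografts, against 319.9 and 164 CPM in culture (log2 -6.72 ± 0.22, edgeR adjusted p = 0.058 without the Dox (-) xenograft). FGF19, the gut hormone that represses bile acid synthesis, had 0.205 and 0.195 CPM in xenografts, against 15.3 and 15.6 CPM in culture (log2 -6.23 ± 0.40), and DIO3, which inactivates thyroid hormone, had 0.410 and 0.195 CPM in xenografts, against 32.4 and 28.4 CPM in culture (log2 -6.62 ± 0.33).

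The gene lists differed in direction and in how many members moved, against 29.5% of all tested genes higher and 27.8% lower. Shares near these, also where members went both ways, are no result about a list. Genes that reached 1 CPM in both environments numbered 13170, with 24.7% higher and 28.9% lower.

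**Figure D3:**
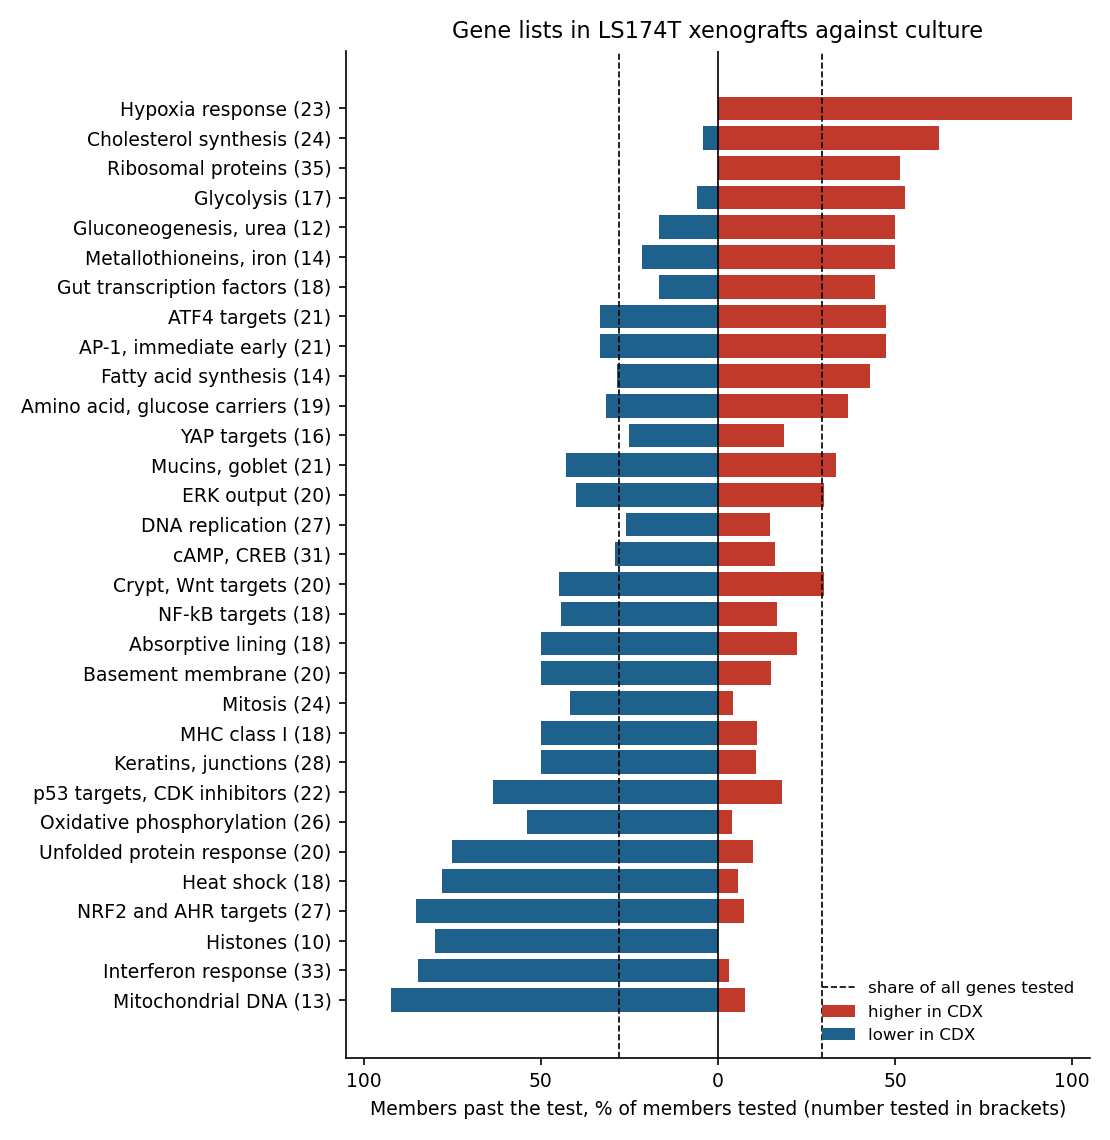
Bars give the share of tested members of each gene list that passed the test as higher in xenografts (red, to the right) or lower (blue, to the left), with the number tested in brackets. Dashed lines mark the shares of all genes tested, 29.5% higher and 27.8% lower. Hypoxia response members are all on the higher side, and mitochondrial DNA, interferon, histone and NRF2 and AHR lists lie mostly on the lower side.

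Keratins of simple epithelium fell, while the adhesion genes EPCAM and CDH1 did not pass. KRT8, the type II keratin of simple epithelia, had 2469.8 and 1738 CPM in xenografts, against 14558 and 11460.1 CPM in culture (log2 -2.64 ± 0.21, edgeR adjusted p = 3.03e-10). Its partner KRT18 had 1314 and 989.7 CPM in xenografts, against 6359 and 5240.2 CPM in culture (log2 -2.34 ± 0.20), and KRT19 had 1007 and 579 CPM in xenografts, against 2199 and 1564 CPM in culture (log2 -1.28 ± 0.18). CDH1, E-cadherin, had 499.6 and 324 CPM in xenografts, against 381 and 350.00 CPM in culture (log2 0.14 ± 0.17) and overlapped between groups. Of 28 keratin and junction genes 3 rose and 14 fell, with a median of -0.33. In all 9 fell without the Dox (-) culture, and 8 fell and 0 rose without the Dox (+) culture. Without the Dox (+) xenograft 9 rose, and with upper-quartile scaling 8. CLDN2, the leaky tight junction claudin, had 0.205 and 1.17 CPM in xenografts, against 39.3 and 66.5 CPM in culture (log2 -6.38 ± 0.31). ELF3, an epithelial transcription factor, rose with 870.1 and 386 CPM in xenografts, against 196 and 140.3 CPM in culture (log2 1.81 ± 0.19). Without the Dox (+) culture the edgeR adjusted p of ELF3 was 0.0501, and in the fit over all 8 libraries that of CLDN2 was 0.066.

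Basement membrane and integrin genes leaned lower, with 10 of 20 fallen and 3 risen (median log2 -0.70), and 0 risen without either culture. COL17A1, a hemidesmosome collagen, had 40.6 and 20.3 CPM in xenografts, against 204 and 147 CPM in culture (log2 -2.59 ± 0.18). LAMA3, a chain of laminin 332, had 35.0 and 17.2 CPM in xenografts, against 173 and 125 CPM in culture (log2 -2.57 ± 0.18), and HSPG2, the proteoglycan perlecan, had 83.7 and 42.2 CPM in xenografts, against 434 and 391 CPM in culture (log2 -2.79 ± 0.20). LAMB3, another chain of the same laminin, had 147 and 78.2 CPM in xenografts, against 149.98 and 104 CPM in culture and did not pass. Mesenchymal genes gave 9 tested members, 3 higher and 4 lower, and TWIST1, CDH2 and MMP9 were at 0 reads in all 4 libraries. Those that reached 1 CPM in both environments numbered 8, with 2 risen and 4 fallen. Without a library 1 to 2 members fell, except without the Dox (-) xenograft. MMP14, a membrane metalloproteinase, was among those that rose, with 58.4 and 59.4 CPM in xenografts, against 21.5 and 23.1 CPM in culture (log2 1.40 ± 0.17). VIM, the mesenchymal filament protein, stayed under 1 CPM in every library.

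Many p53 targets fell. Of 22 tested p53 targets and CDK inhibitors, 14 fell (63.6%) and 4 rose, with a median log2 change of -0.70. CDKN1A, the cell cycle inhibitor p21, had 149.5 and 104.8 CPM in xenografts, against 1235 and 937 CPM in culture (log2 -3.10 ± 0.19). MDM2, the ligase that degrades p53, had 80.8 and 84.9 CPM in xenografts, against 279 and 244 CPM in culture (log2 -1.66 ± 0.16). FAS, a death receptor, had 9.02 and 9.76 CPM in xenografts, against 40.6 and 38.9 CPM in culture (log2 -2.08 ± 0.19), and TIGAR, a regulator of glycolysis, had 9.60 and 10.8 CPM in xenografts, against 44.5 and 46.1 CPM in culture (log2 -2.15 ± 0.19). In all 4 of these genes the tumors lay below both cultures, where 79.0% of all genes tested had no overlap in either direction. Not every target followed, since BBC3, which encodes the death inducer PUMA, had 46.6 and 48.7 CPM in xenografts, against 53.3 and 42.2 CPM in culture and did not pass. The CDK inhibitors CDKN1C and CDKN1B rose. CDKN1C had 10.8 and 16.0 CPM in xenografts, against 1.22 and 1.48 CPM in culture (log2 3.29 ± 0.32). CDKN1B had 154 and 143 CPM in xenografts, against 62.3 and 76.9 CPM in culture (log2 1.10 ± 0.17).

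Mitotic genes were lower in part, with 10 of 24 fallen and 1 risen (median log2 -0.36). MKI67, the usual marker of dividing cells, had 119 and 89.3 CPM in xenografts, against 236 and 323 CPM in culture (log2 -1.42 ± 0.20). AURKA, a mitotic kinase, had 34.3 and 38.5 CPM in xenografts, against 76.3 and 92.6 CPM in culture (log2 -1.21 ± 0.17). TOP2A, a topoisomerase of dividing cells, had 156 and 138 CPM in xenografts, against 125 and 176 CPM in culture, which overlapped. CDK1, the kinase that starts mitosis, had 77.3 and 83.2 CPM in xenografts, against 59.7 and 88.5 CPM in culture, and neither of the pair passed. Only 5 mitotic genes fell without the Dox (+) culture, and 0 rose without any 1 library. DNA replication genes gave 7 fallen and 4 risen of 27, with a median of -0.04, close to that of all genes, and the MCM2 to MCM7 helicase subunits did not pass. Without the Dox (+) culture 2 fell and 2 rose, without the Dox (-) culture 0 rose, and without the Dox (+) xenograft 11 fell. CDC6, a replication licensing factor, had 35.6 and 42.8 CPM in xenografts, against 81.8 and 106 CPM in culture (log2 -1.26 ± 0.16).

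Histone transcripts were lower in 8 of 10 tested members (median log2 -1.89), among them H2BC12 with 5.87 and 4.93 CPM in xenografts, against 26.6 and 27.1 CPM in culture (log2 -2.31 ± 0.23). Most transcripts of replicating histones lack a poly(A) tail, the libraries were captured with oligo(dT), and the part of the capture in these counts was not tested. Members are also close copies of each other.

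Crypt genes held members that rose and members that fell. Of 20 tested crypt and Wnt genes, 6 rose (30%) and 9 fell (45%), with a median log2 of -0.54. The share that rose is near the 29.5% of all genes tested. OLFM4, a secreted marker of intestinal crypt base cells, had 1142 and 3547 CPM in xenografts, against 16.4 and 37.6 CPM in culture, a log2 change of 6.34 ± 0.23. Both tumors stood far above both cultures, and Dox (+) was the higher state in each environment. With a library left out the edgeR adjusted p of OLFM4 was 0.054 without the Dox (-) culture, 0.0512 without the Dox (-) xenograft and 0.0557 without the Dox (+) xenograft, at log2 changes between 5.41 and 7.04. EPHB3, a receptor that sorts crypt cells, had 1111 and 1173 CPM in xenografts, against 258 and 307 CPM in culture (log2 2.02 ± 0.18), and AXIN2, a Wnt feedback gene, had 291 and 292 CPM in xenografts, against 148 and 127 CPM in culture (log2 1.09 ± 0.16). LGR5, the crypt stem cell receptor, had 146 and 155 CPM in xenografts, against 93.1 and 124 CPM in culture (log2 0.49 ± 0.16). Other Wnt targets fell: NOTUM, a Wnt inhibitor, had 0.451 and 1.42 CPM in xenografts, against 6.66 and 8.01 CPM in culture (log2 -3.09 ± 0.41). TCF7, a transcription factor of the pathway, had 21.7 and 23.8 CPM in xenografts, against 70.4 and 78.8 CPM in culture (log2 -1.71 ± 0.17), and MYC, the growth regulator, had 248 and 338 CPM in xenografts, against 455 and 482 CPM in culture (log2 -0.69 ± 0.17). As few as 2 members rose without the Dox (-) culture, and 5 fell without either culture.

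Goblet genes also went both ways, with 7 of 21 risen (33.3%) and 9 fallen (42.9%), at a median log2 of -0.39. The share that rose is near that of all genes tested. MUC2, the gel-forming mucin of the colon, had 1303 and 973 CPM in xenografts, against 3357 and 3412 CPM in culture (log2 -1.59 ± 0.19), and MUC6, a gland mucin, had 729 and 545 CPM in xenografts, against 1974 and 2075 CPM in culture (log2 -1.68 ± 0.19). MUC5AC, a mucin of the stomach surface, had 64.3 and 73.8 CPM in xenografts, against 702 and 750.4 CPM in culture (log2 -3.40 ± 0.18). MUC5B went the other way, with 853 and 631 CPM in xenografts, against 417 and 465 CPM in culture (log2 0.74 ± 0.18). Products secreted with mucin also rose: ZG16, a lectin of goblet granules, had 147 and 158 CPM in xenografts, against 11.6 and 7.51 CPM in culture (log2 4.02 ± 0.20), and TFF3, the trefoil peptide of goblet cells, had 600.3 and 640.1 CPM in xenografts, against 200.7 and 186 CPM in culture (log2 1.68 ± 0.17). SPINK4, a protease inhibitor of goblet cells, fell with 6.56 and 13.0 CPM in xenografts, against 119 and 168 CPM in culture (log2 -3.93 ± 0.19). REG4, a secreted lectin, fell with 64.7 and 114 CPM in xenografts, against 404 and 422 CPM in culture (log2 -2.26 ± 0.19). ATOH1, the factor that commits cells to the secretory lineage, had 7.83 and 28.7 CPM in xenografts, against 5.45 and 13.6 CPM in culture (log2 0.81 ± 0.24), and its target SPDEF had 21.8 and 36.5 CPM in xenografts, against 21.6 and 26.8 CPM in culture and did not pass. In the fit over all 8 libraries the edgeR adjusted p was 0.0699 for MUC5AC and 0.109 for SPINK4. The goblet genes that rose numbered 4 without the Dox (+) culture.

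MUC17 and MUC12, membrane mucins, differed between the tumors. MUC17 had 275 and 41.5 CPM in xenografts, against 617 and 449 CPM in culture. MUC12 had 33.3 and 8.88 CPM in xenografts, against 16.4 and 32.7 CPM in culture. Each was several times higher in the Dox (-) than in the Dox (+) tumor, and neither passed the test (log2 -2.28 ± 1.12 and -0.39 ± 1.42).

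**Figure D4:**
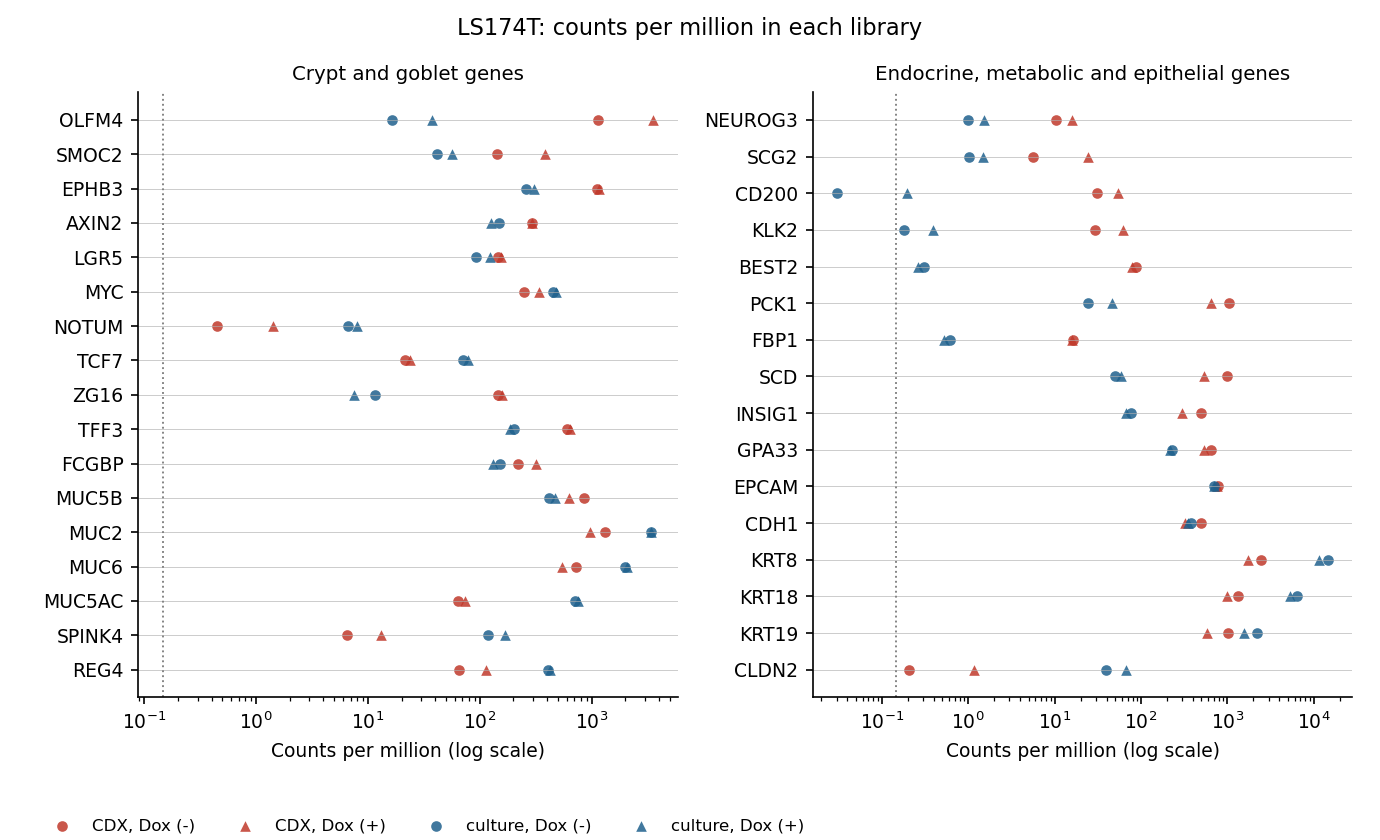
CPM on a log axis for each of the 4 LS174T libraries, with xenografts in red and cultures in blue, circles for Dox (-) and triangles for Dox (+). The dotted line marks 0.146 CPM, the highest floor of 3 counts. OLFM4, EPHB3, ZG16 and TFF3 are higher in both xenografts, MUC5AC, SPINK4, KRT8 and CLDN2 are lower in both, and EPCAM and CDH1 differ little.

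Enteroendocrine genes were near absent in culture. Of 20 members, 13 stayed under the limit for testing, and 5 of the 7 tested reached 1 CPM in xenografts only, so their number past the test says little. NEUROG3, the factor that starts the endocrine lineage, was tested in both environments, with 10.3 and 15.7 CPM in xenografts, against 1.00 and 1.54 CPM in culture (log2 3.35 ± 0.32). PAX4, an endocrine factor downstream of it, had 3.69 and 6.64 CPM in xenografts, against 0 and 0.0984 CPM in culture, and INSM1, another, had 9.80 and 12.4 CPM in xenografts, against 0 and 0.295 CPM in culture. CHGA, a granule protein of endocrine cells, had 1.07 and 13.4 CPM in xenografts, against 0.395 and 0.525 CPM in culture, so that most of its reads came from the Dox (+) tumor. Of the gut hormones GCG had 0.369 and 1.17 CPM in xenografts, against 0 and 0 CPM in culture, and SST had 0 and 0.244 CPM in xenografts and 0 reads in culture, so that it was read in the Dox (+) tumor alone.

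Absorptive genes leaned lower, with 9 of 18 fallen and 4 risen (median log2 -0.58). Those that reached 1 CPM in both environments numbered 16, with 8 fallen and 3 risen. CEACAM6 and CEACAM5 are surface glycoproteins and close copies. CEACAM6 had 48.0 and 32.2 CPM in xenografts, against 638 and 537 CPM in culture (log2 -3.90 ± 0.19). CEACAM5 had 319 and 165 CPM in xenografts, against 1163 and 1048 CPM in culture (log2 -2.27 ± 0.20). MYO1A, the brush border myosin, rose with 69.0 and 35.6 CPM in xenografts, against 15.1 and 10.0 CPM in culture (log2 2.02 ± 0.18), and FABP1, a fatty acid binding protein, rose with 106 and 71.8 CPM in xenografts, against 36.8 and 39.9 CPM in culture (log2 1.19 ± 0.18). KRT20, a keratin of mature colonocytes, had 6.11 and 2.39 CPM in xenografts, against 17.6 and 8.43 CPM in culture (log2 -1.66 ± 0.28). CA4, a carbonic anhydrase of the colon surface, had 0 reads in both tumors and 1.73 and 1.64 CPM in culture, at least 14.1-fold and 11.2-fold lower. The members that fell numbered 4 without the Dox (-) culture and 5 without the Dox (+) xenograft. Among gut transcription factors 8 of 18 rose and 3 fell, including CDX2, which specifies intestine, with 252 and 226 CPM in xenografts, against 114 and 141 CPM in culture (log2 0.91 ± 0.16). HES1, a Notch target, rose as well, with 79.9 and 90.9 CPM in xenografts, against 28.1 and 27.9 CPM in culture (log2 1.61 ± 0.17). HNF4A, a factor of mature epithelium, had 179 and 189.6 CPM in xenografts, against 183 and 174 CPM in culture and did not pass. Of these factors 5 rose without the Dox (-) culture and 4 without the Dox (+) culture, with 1 fallen in each case. Without the Dox (+) xenograft 5 fell.

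Cholesterol synthesis genes rose. Of 24 tested, 15 rose (62.5%) and 1 fell, with a median log2 change of 0.76. INSIG1, a sterol sensor and itself a SREBP target, had 493 and 300.2 CPM in xenografts, against 77.6 and 67.9 CPM in culture (log2 2.41 ± 0.18, edgeR adjusted p = 7.75e-11), and HMGCS1, which starts the pathway, had 815 and 386 CPM in xenografts, against 145 and 123 CPM in culture (log2 2.07 ± 0.20). SREBF2, a transcription factor that drives these genes, had 445 and 334 CPM in xenografts, against 406 and 352 CPM in culture and did not pass. In this list 9 members rose and 0 fell without the Dox (+) culture, without the Dox (-) culture 0 fell, and without the Dox (+) xenograft 3 fell.

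Fatty acid genes were mixed, with 6 of 14 risen and 4 fallen, or 2 fallen without the Dox (+) culture. SCD, the stearoyl-CoA desaturase, had 995 and 538 CPM in xenografts, against 49.4 and 58.5 CPM in culture (log2 3.77 ± 0.29), and FADS2, another desaturase, had 189 and 192 CPM in xenografts, against 57.6 and 60.0 CPM in culture (log2 1.70 ± 0.16). FASN, the fatty acid synthase, had 1017 and 877 CPM in xenografts, against 777 and 746 CPM in culture and did not pass.

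Genes of gluconeogenesis and the urea cycle gave 6 risen and 2 fallen of 12, or 1 fallen without either culture. PCK1, which commits carbon to glucose, had 1034 and 655 CPM in xenografts, against 24.3 and 46.6 CPM in culture (log2 4.61 ± 0.67). FBP1, a later step in that direction, had 16.2 and 15.8 CPM in xenografts, against 0.608 and 0.525 CPM in culture (log2 4.80 ± 0.34), and it reached 1 CPM in xenografts only. Members of this list that reached it in both environments numbered 10, with 4 risen and 2 fallen. CPS1, the entry enzyme of the urea cycle, had 31.3 and 49.5 CPM in xenografts, against 9.80 and 14.5 CPM in culture (log2 1.72 ± 0.19), while ASS1, a later step, had 92.2 and 93.4 CPM in xenografts, against 257 and 208 CPM in culture (log2 -1.32 ± 0.16). Among amino acid and glucose carriers 7 of 19 rose (36.8%) and 6 fell (31.6%), not far from the shares of all genes tested. SLC7A11, the cystine importer, had 53.2 and 38.1 CPM in xenografts, against 186 and 227 CPM in culture (log2 -2.19 ± 0.19). SLC7A5, a leucine carrier, had 357 and 519.6 CPM in xenografts, against 871 and 1059 CPM in culture (log2 -1.16 ± 0.18). SLC2A1, the glucose carrier that also counts as a hypoxia gene, had 683 and 377 CPM in xenografts, against 209.7 and 200 CPM in culture (log2 1.31 ± 0.19). Without either culture 4 carriers rose.

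Metallothioneins rose and ferritin fell. MT1X, a metal-binding protein with close copies, had 76.4 and 96.9 CPM in xenografts, against 16.7 and 21.2 CPM in culture (log2 2.19 ± 0.17), and MT2A, another metallothionein, had 96.4 and 168 CPM in xenografts, against 43.3 and 53.5 CPM in culture (log2 1.40 ± 0.17). FTL, the light chain of the iron store ferritin, had 1254 and 1486 CPM in xenografts, against 6522 and 5455 CPM in culture (log2 -2.13 ± 0.20). FTH1, the heavy chain, had 1849.9 and 1415 CPM in xenografts, against 6837 and 5863 CPM in culture (log2 -1.97 ± 0.20). TFRC, which imports iron, fell as well, with 325 and 215 CPM in xenografts, against 715 and 743 CPM in culture (log2 -1.46 ± 0.19). In the whole list 7 of 14 rose and 3 fell, and 5 fell without the Dox (+) xenograft.

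Chaperones fell in both the cytosol and the endoplasmic reticulum. Of 18 heat shock genes 14 fell (77.8%) and 1 rose (median log2 -1.37), with 0 risen without either culture. HSPA8, the constitutive HSP70, had 1157 and 1691 CPM in xenografts, against 4794 and 5066 CPM in culture (log2 -1.82 ± 0.20). HSP90AA1, an inducible HSP90, had 1072 and 1551 CPM in xenografts, against 3394 and 3617 CPM in culture (log2 -1.44 ± 0.19) and AHSA1, an HSP90 co-chaperone, had 59.7 and 93.0 CPM in xenografts, against 302 and 326 CPM in culture (log2 -2.07 ± 0.17). In these 3 chaperones the Dox (+) tumor lay above the Dox (-) tumor, and both lay below the cultures. The regulator HSF1 had 126 and 112 CPM in xenografts, against 119 and 117 CPM in culture and did not pass. Of 20 genes of the unfolded protein response 15 fell (75%) and 2 rose (median log2 -0.85), with 0 or 1 risen without either culture or the Dox (-) xenograft. CALR, a glycoprotein chaperone, had 763 and 953 CPM in xenografts, against 2927 and 2952 CPM in culture (log2 -1.79 ± 0.19). HYOU1, another chaperone, had 109.7 and 105.05 CPM in xenografts, against 335 and 349.7 CPM in culture (log2 -1.67 ± 0.16) and HSPA5, the sensor chaperone BiP, had 961 and 759.7 CPM in xenografts, against 1586 and 1477 CPM in culture (log2 -0.84 ± 0.18). XBP1 is listed at 0 reads in all 4 libraries, and whether this count reflects its expression was not tested.

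Targets of ATF4, the factor of the integrated stress response, were divided, with 10 of 21 risen and 7 fallen (median log2 0.37). DDIT3, the death factor CHOP, had 62.0 and 39.5 CPM in xenografts, against 16.0 and 11.02 CPM in culture (log2 1.90 ± 0.18). NUPR1, a stress-induced nuclear protein, had 415 and 342 CPM in xenografts, against 144 and 113 CPM in culture (log2 1.56 ± 0.16) and TRIB3, a feedback pseudokinase, had 221 and 195 CPM in xenografts, against 98.02 and 85.5 CPM in culture (log2 1.18 ± 0.16). CHAC1, which degrades glutathione, went down with 10.46 and 11.6 CPM in xenografts, against 26.3 and 24.2 CPM in culture (log2 -1.20 ± 0.21). ATF4 itself had 564 and 525 CPM in xenografts, against 428 and 411 CPM in culture and did not pass. Without either culture 3 members fell.

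Ribosomal protein genes rose or did not pass: 18 of 35 rose (51.4%) and 0 fell at a median log2 change of 0.43. RPS3A had 1000.1 and 1269.8 CPM in xenografts, against 392.2 and 400.2 CPM in culture (log2 1.51 ± 0.18) and RPL3 had 2450.1 and 2829.7 CPM in xenografts, against 1119.8 and 1112 CPM in culture (log2 1.24 ± 0.19). RPS2 did not pass, with 2381 and 2778 CPM in xenografts, against 2511 and 2704 CPM in culture. Without the Dox (-) culture 11 rose, without the Dox (+) culture 9, and without the Dox (+) xenograft 5 members fell. Pseudogenes share reads with many of these genes. The elongation factor EEF1A1 had 9967 and 10456 CPM in xenografts, against 5097 and 5274 CPM in culture (log2 0.98 ± 0.20, edgeR adjusted p = 0.0523 without the Dox (-) culture).

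Transcripts of the mitochondrial genome fell in 12 of 13 cases, with MT-CO1 the exception (median log2 -1.03). MT-ND5 had 1594 and 1411 CPM in xenografts, against 7069.8 and 5378 CPM in culture (log2 -2.04 ± 0.20). MT-ND2, like it a complex I subunit, had 1035 and 1312 CPM in xenografts, against 8257 and 6716 CPM in culture (log2 -2.68 ± 0.22) and MT-ATP8, of the ATP synthase, had 134 and 181 CPM in xenografts, against 2496 and 2547 CPM in culture (log2 -4.02 ± 0.21). MT-CO1 had 16592 and 16459.6 CPM in xenografts, against 12503 and 11326 CPM in culture (log2 0.47 ± 0.20), a call lost with RLE scaling (edgeR adjusted p = 0.0601), without a filter and without either culture. Nuclear genes of oxidative phosphorylation gave 14 fallen and 1 risen of 26 (median log2 -0.54), for example SDHB, of complex II, with 67.6 and 74.4 CPM in xenografts, against 187 and 176 CPM in culture (log2 -1.35 ± 0.16) and NDUFB10, of complex I, with 72.6 and 88.99 CPM in xenografts, against 195 and 198 CPM in culture (log2 -1.29 ± 0.16). Without the Dox (-) culture 6 mitochondrial and 9 nuclear genes fell, and without the Dox (+) culture 9 nuclear genes. The number of nuclear genes that rose was 0 without either culture and 3 without either xenograft.

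Interferon response genes were lower in the tumors. Of 33 tested, 28 fell (84.8%) and 1, IRF9, rose, with a median log2 change of -1.34. IFI6, an antiviral membrane protein, had 9.02 and 9.62 CPM in xenografts, against 213 and 178 CPM in culture (log2 -4.39 ± 0.19, edgeR adjusted p = 3.71e-15). OAS2, a sensor of viral RNA, had 1.03 and 0.879 CPM in xenografts, against 38.8 and 30.7 CPM in culture (log2 -5.18 ± 0.27), and IFIT3, which binds such RNA, had 1.89 and 2.88 CPM in xenografts, against 25.8 and 23.8 CPM in culture (log2 -3.40 ± 0.27). ISG15, a ubiquitin-like modifier, had 48.3 and 47.1 CPM in xenografts, against 132 and 111 CPM in culture (log2 -1.34 ± 0.16). For all 4 the higher tumor was below the lower culture, where 79.0% of all genes tested had no overlap in either direction. IRF9, a DNA-binding factor of the pathway, had 9.31 and 3.90 CPM in xenografts, against 2.68 and 1.28 CPM in culture (log2 1.71 ± 0.35), and 0 members were called higher without the Dox (+) culture or the Dox (-) xenograft, 2 without the Dox (+) xenograft.

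Antigen presentation genes shifted less, with 9 of 18 fallen and 2 risen (median log2 -0.33), and 5 fell without the Dox (-) culture and 0 rose without either culture. B2M, the light chain of class I molecules, had 253 and 326 CPM in xenografts, against 609.9 and 557 CPM in culture (log2 -1.02 ± 0.18) and TAP1, the peptide transporter, had 27.2 and 40.9 CPM in xenografts, against 98.1 and 85.2 CPM in culture (log2 -1.45 ± 0.19). HLA genes are close copies and highly variable, so their counts are uncertain. Of 18 NF-kB targets 8 fell and 3 rose (median log2 -0.59). Those that reached 1 CPM in both environments numbered 15, with 7 fallen and 1 risen. CXCL8, which attracts neutrophils, had 4.18 and 8.01 CPM in xenografts, against 31.5 and 38.5 CPM in culture (log2 -2.58 ± 0.22). CXCL1, of the same family, had 11.2 and 7.57 CPM in xenografts, against 42.1 and 46.8 CPM in culture (log2 -2.26 ± 0.21). The inhibitor NFKBIA, itself induced by the pathway, had 22.8 and 34.9 CPM in xenografts, against 33.8 and 29.9 CPM in culture and did not pass. IL6 had 0 reads in all 4 libraries.

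Immediate early genes were divided. Of 21 tested, 10 rose and 7 fell (median log2 0.69). JUN, an AP-1 subunit, had 775 and 557 CPM in xenografts, against 223 and 177 CPM in culture (log2 1.72 ± 0.17). JUND, its relative, had 588 and 427 CPM in xenografts, against 198 and 189 CPM in culture (log2 1.37 ± 0.17) and the nuclear receptor NR4A1 had 164 and 133 CPM in xenografts, against 44.8 and 45.2 CPM in culture (log2 1.72 ± 0.17). FOSL1, an AP-1 subunit under ERK, had 18.3 and 16.4 CPM in xenografts, against 90.0 and 79.0 CPM in culture (log2 -2.28 ± 0.17), and KLF2, a zinc finger factor, had 9.19 and 10.7 CPM in xenografts, against 55.4 and 36.7 CPM in culture (log2 -2.19 ± 0.21). The counts were 5 and 4 without the Dox (+) culture. Among genes downstream of ERK 6 of 20 rose (30%, near the share of all genes tested) and 8 fell (40%). Those that reached 1 CPM in both environments numbered 19, with 5 risen and 8 fallen. AREG, a ligand of EGFR, had 19.2 and 20.5 CPM in xenografts, against 179 and 169 CPM in culture (log2 -3.14 ± 0.18). EREG, another such ligand, had 36.6 and 23.7 CPM in xenografts, against 197 and 189.9 CPM in culture (log2 -2.71 ± 0.18). The phosphatase DUSP4 had 69.0 and 41.5 CPM in xenografts, against 301 and 307 CPM in culture (log2 -2.50 ± 0.19), while the feedback inhibitor SPRY2 had 118 and 118 CPM in xenografts, against 39.8 and 44.3 CPM in culture (log2 1.49 ± 0.16). Tumors and cultures did not overlap for any of these 4, nor for 79.0% of all genes tested.

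The cAMP pathway, which GNAS drives, gave 5 risen and 9 fallen of 31 (median log2 -0.19), shares of 16.1% and 29% that stand below and near those of all genes tested. Members that reached 1 CPM in both environments numbered 30, with 4 risen and 9 fallen. PDE4A, given next, reached it in xenografts only and so entered the test through the group where it is high. PKIA, an inhibitor of protein kinase A, had 10.54 and 19.5 CPM in xenografts, against 1.34 and 1.97 CPM in culture (log2 3.15 ± 0.30), and PDE4A, which breaks down cAMP, had 9.15 and 5.56 CPM in xenografts, against 0.517 and 0.558 CPM in culture (log2 3.73 ± 0.41). PDE3A, another phosphodiesterase, had 1.39 and 1.95 CPM in xenografts, against 6.94 and 24.2 CPM in culture (log2 -3.001 ± 0.34), a call lost without either xenograft (edgeR adjusted p = 0.276 without the Dox (-) one and 0.178 without the Dox (+) one). CREB1, the factor itself, had 40.1 and 42.5 CPM in xenografts, against 35.6 and 40.2 CPM in culture and did not pass. The number that fell was 5 without the Dox (+) culture. YAP targets gave 3 risen (18.8%) and 4 fallen (25%) of 16, and with upper-quartile scaling 6 rose. CCN2, a matricellular protein, had 19.0 and 11.7 CPM in xenografts, against 61.7 and 48.9 CPM in culture (log2 -1.88 ± 0.18). Without the Dox (+) xenograft 7 YAP targets rose, and without the Dox (+) culture 2 fell.

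KM12, another human colorectal line, was followed from culture to xenograft in a parental and a GNAS knockout pair. In a fit over all 8 libraries with the 4 pairs as blocks, the xenograft effect differed between LS174T and KM12 in 2198 of 16070 genes (13.7%) by edgeR's quasi-likelihood test, with 1244 higher in LS174T (7.74%) and 954 lower (5.94%). Without 1 KM12 library the count was 1541 to 1633 higher and 1211 to 1395 lower. Without an LS174T library it was far smaller, 23 higher and 23 lower without the Dox (-) culture, 150 and 67 without the Dox (+) culture, 43 and 47 without the Dox (-) xenograft and 154 and 84 without the Dox (+) xenograft. Differences below are log2 effects in LS174T minus those in KM12, with CPM of KM12 scaled over all 8 libraries, and list medians come from the 4-library fit for LS174T and the 8-library fit for KM12. List counts of the difference were not recomputed with a library left out, but NDUFA4L2, PLOD2, OAS2, IFI6, KRT8 and AKR1C2, named below, passed in each such fit. VEGFA and STC2 each lost the call in 1 of the 8.

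Hypoxia genes had larger effects in LS174T than in KM12. The difference passed for 16 of 23 members, all higher in LS174T. The list's median effect was 2.84 in LS174T and 0.85 in KM12. In KM12 itself 14 of the 23 rose and 1 fell, where 14.3% of all genes rose and 15.5% fell. EGLN3, among those that rose, had 87.3 and 34.0 CPM in KM12 xenografts, against 8.01 and 7.35 CPM in KM12 culture. VEGFA differed by 3.29 ± 0.37 log2, with 596 and 385 CPM in KM12 xenografts, against 453 and 419 CPM in KM12 culture. NDUFA4L2 and PLOD2 are not members of the list. NDUFA4L2 had 1.26 and 1.36 CPM in KM12 xenografts, against 7.91 and 7.06 CPM in KM12 culture. Its difference was 11.88 ± 0.32 log2 (edgeR adjusted p = 2.66e-06). PLOD2 had 0 and 0.146 CPM in KM12 xenografts, against 1.20 and 1.38 CPM in KM12 culture and differed by 10.63 ± 0.83 log2. CA9 had 3.61 and 10.3 CPM in KM12 xenografts, against 0.275 and 0.0586 CPM in KM12 culture and its difference did not pass (3.22 ± 1.19 log2), but passed with no filter and, at 4.88 log2, without either KM12 GNAS knockout library, and was 1.21 or 1.22 log2 without either parental one. STC2, a secreted glycoprotein, had 236 and 206 CPM in xenografts, against 98.8 and 89.6 CPM in culture of LS174T, and 0 and 0 CPM in KM12 xenografts, against 1.51 and 0.527 CPM in KM12 culture.

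In the interferon list 28 of 33 members fell and 1 rose in LS174T, whereas 20 rose and 1 fell in KM12, with a median effect of -1.34 in LS174T and 1.26 in KM12. Of all 16070 genes, 14.3% rose and 15.5% fell in KM12 by the same test. The difference passed for 22 of 33 members, all lower in LS174T. OAS2 had 1.61 and 5.00 CPM in KM12 xenografts, against 0.172 and 0.439 CPM in KM12 culture, a difference of -8.60 ± 0.45 log2 (edgeR adjusted p = 0.000119), and IFI6 had 32.0 and 45.7 CPM in KM12 xenografts, against 18.6 and 17.6 CPM in KM12 culture, a difference of -5.50 ± 0.28 log2. Ribosomal protein genes had medians of 0.43 in LS174T and -0.44 in KM12, and 26 of 35 passed as higher in LS174T. ATF4 targets had medians of 0.37 and -1.14 in LS174T and KM12, and 14 of 21 passed as higher in LS174T. For KRT8 the difference was -2.34 ± 0.21 log2, with 3382 and 4063 CPM in KM12 xenografts, against 4732 and 4524 CPM in KM12 culture.

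In the drug metabolism list 23 of 27 members fell and 2 rose in LS174T, and 13 fell and 0 rose in KM12, with medians of -2.58 in LS174T and -1.05 in KM12. The difference passed for 11 of 27, all lower in LS174T. CYP1A1 had 0 and 0 CPM in KM12 xenografts, against 19.1 and 17.8 CPM in KM12 culture, and its difference did not pass (edgeR adjusted p = 0.816). CYP1B1 had 0.573 and 0.728 CPM in KM12 xenografts, against 23.8 and 24.4 CPM in KM12 culture, and its difference did not pass either (-0.03 ± 0.43 log2). AKR1C2 had 0.975 and 1.41 CPM in KM12 xenografts, against 1.31 and 1.67 CPM in KM12 culture, a difference of -5.29 ± 0.29 log2 that passed. Cholesterol genes had medians of 0.76 in LS174T and 0.88 in KM12, and the difference passed for 2 of 24. Goblet genes had medians of -0.39 in LS174T and 1.96 in KM12, with 6 of 21 members lower and 1 higher in LS174T past the test of the difference. In KM12 itself only 6 of the 21 rose and 0 fell. The KM12 median was the value of SPINK4, which did not pass there (1.96 ± 1.31 log2, edgeR adjusted p = 0.366). A miss of the test of the difference does not show that the lines responded alike. In simulated counts that test recovered 13% of planted changes at 2-fold and 78% at 4-fold. The planted changes were few and all in genes at a mean of 5 CPM or more. Recovery in the data, where far more genes passed, may differ.

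**Figure D5:**
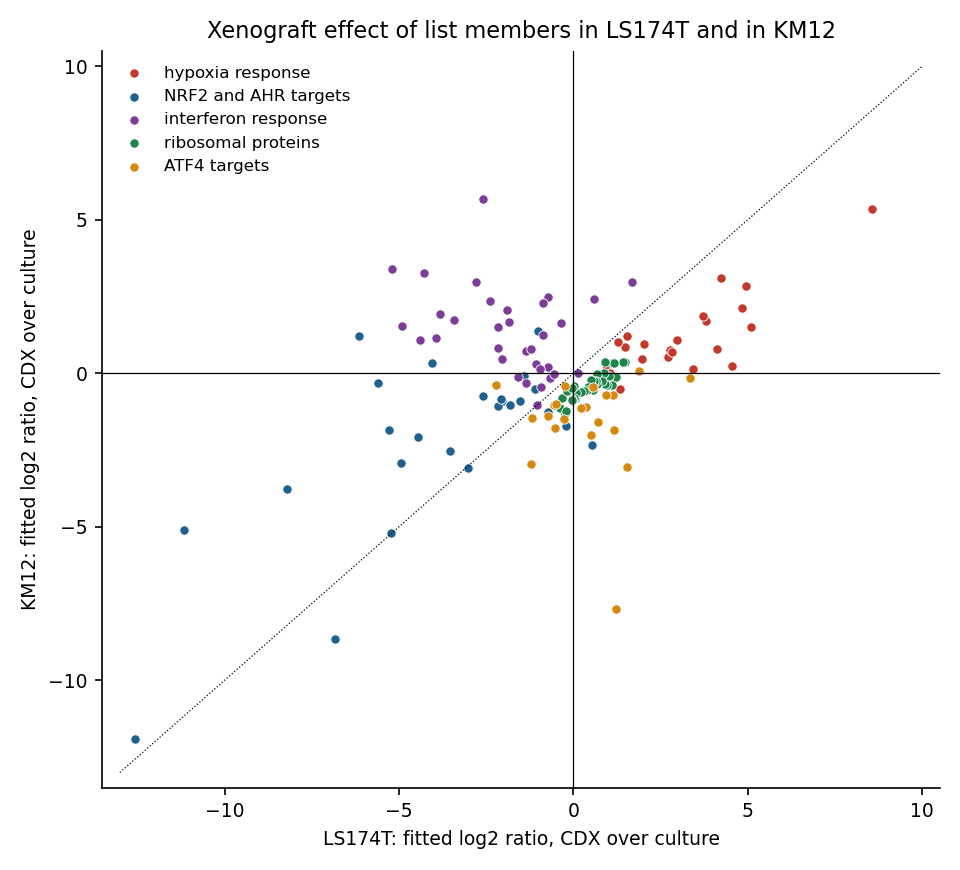
Each point is a list member, with the fitted log2 ratio of xenograft over culture in LS174T on the x axis and in KM12 on the y axis, both from the fit over 8 libraries. The dotted line marks equal effects. Interferon genes lie mostly in the upper left, hypoxia genes to the right and below the line, and the lowest NRF2 and AHR point, CYP1A1, near the line.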

How the data were processed

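RNA-seq gene counts of 8 libraries were analysed, 4 of them from LS174T. The values are raw counts per gene as deposited by the authors. STAR 2.7.2b, HTSeq 0.11.0 and the builds hg38 and GRCm39 are named per the submitters' processing notes, which do not say how mouse reads in tumors were handled. Per the labels' protocols, RNA was captured with oligo(dT) and the second strand was not marked, so overlapping or antisense genes, and close copies, cannot be told apart. Of 60483 identifiers 56753 were named (93.8%, holding 99.96% of the counts). Names came from a list of gene names and, where it had none, from GENCODE 29, which also gave the place and type of each gene.

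Genes reaching 1 CPM in 2 or more of the 4 libraries were tested with edgeR 4.0.16 in R 4.3.3 (quasi-likelihood F test, TMM factors, Dox state as a block, Benjamini-Hochberg over all tested genes, threshold 0.05), with 1 residual degree of freedom. The difference from KM12 was a term in a fit over 8 libraries with the 4 pairs as blocks. Total counts set the precision, from 15924846 to 37735085 in the series. Per-pair ratios carry 95% exact conditional binomial intervals, and floors are 3 counts per library. Intervals and floors cover counting error only.

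The members and all 40 gene lists were chosen with earlier results of these data known. Genes were named by rule: GNAS, the 15 largest changes per direction at a mean of 5 CPM or more, up to 5 members per list by p plus members that define a list, the 6 largest differences between lines per direction, and per direction the 5 most abundant genes past the test. Some defining members were picked after their values were seen. In simulated counts for 14677 genes the LS174T fit recovered 75% of 2-fold and 99% of 4-fold changes, with 41 false among 215 calls. In simulated counts for 16070 genes the test between lines recovered 13% and 78%, with 15 false among 106 calls. Alternatives were DESeq2 1.42.0, limma-voom (limma 3.58.1), other scaling and filters, no Dox block, all 8 libraries, and each library left out. In the LS174T fit with a library left out the Dox block was dropped, and the lone sample of an environment was assumed to vary like the pair in the other. The fit between lines kept its blocks, so that the effect in the line concerned then rested on 1 pair and the spread came from the other line alone. Promoter windows are RefSeq, GRCh38.p14. A few listed genes are not reported here by name.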

Additional observations from a re-analysis of the deposited data

Results flagged for a closer look

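The xenograft effect in LS174T differed from that in KM12 past the test of the difference itself (edgeR, adjusted over 16070 genes) for 28 of the genes taken here: those with the largest changes in LS174T, those with the largest differences, and list members whose difference is given above. Other named list members also passed and are not listed. Differences are log2 effects in LS174T minus those in KM12.

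Among the genes with the largest rise in LS174T, the difference was 11.88 ± 0.32 for NDUFA4L2, 10.63 ± 0.83 for PLOD2, 7.96 ± 0.74 for WFDC2, 7.62 ± 0.78 for LGI4, 7.31 ± 0.67 for BEST2 and 6.89 ± 1.47 for PNCK. It was 5.54 ± 0.62 for CABP7, 5.15 ± 0.44 for C15orf48, 4.77 ± 1.14 for GYG2 and 3.59 ± 0.37 for PPFIA4. WFDC2, a secreted protease inhibitor, had 21.6 and 21.6 CPM in xenografts, against 0.152 and 0.262 CPM in culture of LS174T. It had 0.0573 and 0.243 CPM in KM12 xenografts, against 0.344 and 0.410 CPM in KM12 culture. PLOD2 rose in LS174T tumors and fell in KM12 tumors (edgeR adjusted p = 0.0259 in KM12), where it was hardly read.

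Among the genes with the largest fall in LS174T, the difference was -12.38 ± 1.03 for CES1, -10.77 ± 1.66 for DIO3, -8.28 ± 1.40 for CST1, -6.52 ± 1.66 for NAV3, -4.77 ± 0.43 for ALDH3A1, -4.65 ± 0.46 for SLC6A20 and -4.45 ± 0.50 for ABCG2. ABCG2 fell in both lines, with 4.13 and 4.90 CPM in KM12 xenografts, against 54.6 and 68.9 CPM in KM12 culture. CES1 had 0 and 0.340 CPM in KM12 xenografts, against 0 and 0.0586 CPM in KM12 culture. DIO3 had 0.172 and 0 CPM in KM12 xenografts, against 0 and 0 CPM in KM12 culture. CES1 and DIO3 were thus hardly read in KM12, and so was NAV3, with 0.229 and 0 CPM in KM12 xenografts, against 0.0688 and 0.117 CPM in KM12 culture.

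Among list members the difference was 3.29 ± 0.37 for VEGFA, -5.29 ± 0.29 for AKR1C2, -5.50 ± 0.28 for IFI6 and -2.34 ± 0.21 for KRT8.

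The remaining genes were the largest differences in either direction. The difference was 10.26 ± 0.85 for NXPH4, 8.89 ± 0.72 for STC2, 8.07 ± 0.90 for GABBR1 and 8.05 ± 1.88 for CDHR1, all higher in LS174T. It was -13.39 ± 1.21 for SLC6A14, -8.79 ± 1.10 for HOXB8 and -8.60 ± 0.45 for OAS2, all lower in LS174T. SLC6A14, an amino acid carrier, had 3.90 and 2.34 CPM in xenografts, against 51.0 and 74.7 CPM in culture of LS174T. It had 44.9 and 0.146 CPM in KM12 xenografts, against 0.0344 and 0.0293 CPM in KM12 culture, with the parental tumor alone high. HOXB8, a homeobox factor, had 25.7 and 0.485 CPM in KM12 xenografts, against 0.550 and 0.117 CPM in KM12 culture, again high in the parental tumor alone. STC2 had 0 reads in both KM12 tumors, and CDHR1 had 0 and 0 CPM in KM12 xenografts, against 0 and 0.0879 CPM in KM12 culture. Fitted differences of STC2, CDHR1 and DIO3 therefore depend on the prior count. The sizes for PLOD2 and CES1 also rest on few KM12 reads, and that of PLOD2 ranged between 9.85 and 14.68 with 1 library left out.

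With each of the 8 libraries left out in turn, 9 of the 28 passed every time: NDUFA4L2, PLOD2, BEST2, LGI4, NXPH4, OAS2, IFI6, AKR1C2 and KRT8. The other 19 lost the call at least once without an LS174T library. Without a KM12 library 24 of the 28 passed every time, and CDHR1, CES1, DIO3 and NAV3 did not. Without either KM12 GNAS KO library the difference was 4.60 for CDHR1 (edgeR adjusted p = 1) and -10.01 or -10.02 for CES1 (edgeR adjusted p = 1). Without either parental KM12 library it was -6.65 for DIO3 (edgeR adjusted p = 1) and -1.77 or -1.69 for NAV3 (edgeR adjusted p = 0.922). For SLC6A14 it was -6.47 without the parental KM12 culture. Fits without a KM12 library took their spread from the LS174T pairs alone, and fits without an LS174T library from the KM12 pairs alone. Keeping or losing the call in them thus also depends on which line gave the spread.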

How the results depend on the processing

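The LS174T effect of each of the 216 named genes kept its direction under every alternative that could be fitted. Genes past the test numbered 4327 higher and 4075 lower, and with the other tools and settings 3210 to 5327 higher and 3126 to 4963 lower. Requiring a 2-fold change, a setting chosen after seeing the data, left 2818 higher and 1662 lower. With 1 library left out, where the Dox block was dropped, the range was 2304 to 4798 higher and 2098 to 4692 lower. The difference between lines passed for 1244 higher and 954 lower, 1935 and 1493 with no filter, and 23 to 1633 and 23 to 1395 with 1 library left out, also chosen after seeing the data. Of 31 differences between lines given for single genes, 28 passed, also under every alternative that kept all 8 libraries. The differences of CYP1A1 and CYP1B1, which did not pass, changed sign: with 1 library left out they ranged between -2.37 and 0.48 for CYP1A1 and between -0.17 and 0.14 for CYP1B1, and CYP1B1 was at 0.0019 with no filter. Of the 211 named genes past the test, 18 lost the call without the Dox (-) culture, 16 without the Dox (+) culture, 4 without either xenograft and 12 in the fit over all 8 libraries. No replicate numbers are in the labels: the Dox pairs are the block of the reported fit, and without the Dox block 3953 genes were higher and 3663 lower. Calls were also gained, by 1 named gene with DESeq2 (LYZ) and by 2 with limma-voom and 2 with no filter (LYZ and COL1A1). The cause of these shifts was not tested. Depth limits genes near 1 CPM: 1215 genes passed the filter through xenografts only and 292 through culture only.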
